A study of Rattus norvegicus with 12 samples.

Results

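The 10 genes described here encode the pore subunits of voltage-gated calcium channels: *Cacna1c*, *Cacna1d*, *Cacna1f* and *Cacna1s* (L-type), *Cacna1a* (P/Q-type), *Cacna1b* (N-type), *Cacna1e* (R-type), and *Cacna1g*, *Cacna1h* and *Cacna1i* (T-type). They were chosen by symbol and are 10 of the 37209 genes listed. All 10 passed the filter on low counts. RNA from punches of the central amygdala (CeA) was sequenced in wild-type Sprague Dawley rats, all male and 14 to 16 weeks old. The CIE group (6 rats, numbered 1 to 6) breathed ethanol vapor intermittently over weeks and was killed right at the end of the last exposure. The Control group (6 rats, numbered 7 to 12) was kept in air. Each rat gave 1 library, and the comparison asks how dependence-inducing ethanol vapor changed transcripts of the CeA.

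Voltage-gated calcium channels open when a membrane depolarizes and let calcium into the cell. The pore subunit sets the voltage range, kinetics and drug sensitivity of the channel, whereas the auxiliary beta and alpha2delta subunits set its trafficking and gating. P/Q- and N-type channels trigger transmitter release at nerve terminals, R-type channels act at terminals and dendrites, neuronal L-type channels couple activity to gene expression and pacemaking, and T-type channels open near resting potential and drive burst firing. The CeA is made up mostly of GABAergic neurons, and its P/Q-, N- and L-type channels have been studied as targets of acute and chronic ethanol.

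Total counts ranged from 62.0 to 78.4 M in CIE rats and from 39.1 to 95.6 M in Control rats. Markers of CeA neurons were present in every rat, with *Sst* (somatostatin) at 105 CPM or more and *Prkcd* at 22.7 CPM or more. CPM is the count scaled to the TMM-normalized library size, except in sums over a marker list, which use total counts without TMM. Of 9 CeA markers tested, only 2 had a log2 fold change above 0 (median -0.14). *Crh* (-0.45, edgeR FDR = 0.472) and *Nts* (-0.46, FDR = 0.584) were lower at a nominal p below 0.05. All 9 summed to 550 to 1789 CPM in CIE rats and 644 to 2185 CPM in Control rats (exact permutation p = 0.855). *Penk* held most of that sum, with a mean of 760 of 1211 CPM in CIE rats and 657 of 1158 CPM in Control rats. The sum therefore says little about the other CeA markers. The libraries were not alike in markers of adjoining regions. *Slc17a7*, the vesicular glutamate transporter of cortical neurons, was at 348, 161 and 223 CPM in CIE rats 1, 2 and 4 and at 130 CPM in Control rat 10, at 37.2 CPM in CIE rat 6 and 43.3 CPM in Control rat 12, and between 3.66 and 6.13 CPM in the remaining rats. *Drd2*, the dopamine D2 receptor of striatal projection neurons, was at 236 and 124 CPM in CIE rats 2 and 4 and at 251 CPM in Control rat 10, against 56.1 CPM or less elsewhere. The summed level of 8 cortical markers lay between 30.9 and 450 CPM in CIE rats and between 42.3 and 163 CPM in Control rats (two-sided exact permutation test, p = 0.184), and none of the 8 was at 0 in all rats. Of these 8 cortical markers, 7 had a log2 fold change above 0 (median 1.23). *Neurod2* was higher at a nominal p below 0.05 (1.90, edgeR FDR = 0.575). The exception, *Slc17a6* (-0.63, edgeR FDR = 0.752), had means of 24.6 CPM in CIE rats and 37.5 CPM in Control rats. The p of the cortical sum therefore does not show that the groups were alike in cortical markers. The 8 striatal markers summed to 552 to 3437 CPM in CIE and 294 to 3730 CPM in Control rats (exact permutation p = 0.686). The summed level of 8 myelin markers was lower in the CIE group (5700 to 13835 CPM, against 8513 to 15866 CPM; exact permutation p = 0.0346). So was that of 6 endothelial markers (173 to 230.2 CPM, against 197 to 232 CPM; exact permutation p = 0.0173). In the endothelial list 5 of 6 genes were lower at a nominal p below 0.05, and *Kdr*, a receptor for vascular endothelial growth factor, passed 5% FDR (log2 fold change -0.92, edgeR FDR = 0.0116). Results on the calcium channel genes are therefore given with and without CIE rats 1, 2 and 4 and Control rat 10, a choice made after the values were seen. In bulk tissue, fewer cells of a type and less RNA per cell cannot be told apart.

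Of the 10 pore subunit genes, *Cacna1d* and *Cacna1e* were higher and *Cacna1f* was lower in the CIE group at a nominal p below 0.05 in edgeR's quasi-likelihood test. Over all 20944 genes tested, 8.31% passed this threshold, 4.0% higher and 4.31% lower. The study used the nominal threshold for its longer gene list and also listed genes at 5% FDR. Here the nominal threshold serves for counts and to describe single genes and fits. Each of the 10 genes is also given with an FDR over all genes and an exact permutation p. None of the 10 passed 5% FDR in edgeR (background 0.363%), whereas DESeq2 called 1 of them, *Cacna1f* (background 1.12%). The groups overlapped in all 10 genes, against 0.893% of all genes without overlap. The log2 fold change was above 0 in 9 of 10 pore subunits and in 50.3% of all genes, and its median was 0.11 over the family and 0.00 over all genes. Some of the 10 genes were correlated among rats, so these are not 10 independent observations. Adjusted for the cortical and striatal scores, the median was 0.06 with 7 of 10 above 0, and 1 member passed the nominal threshold (background 8.99%). Without the 4 rats named above the median was 0.03 with 6 of 10 above 0, and 1 member passed (background 5.4%). In both cases it was *Cacna1f*.

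**Figure D1:**
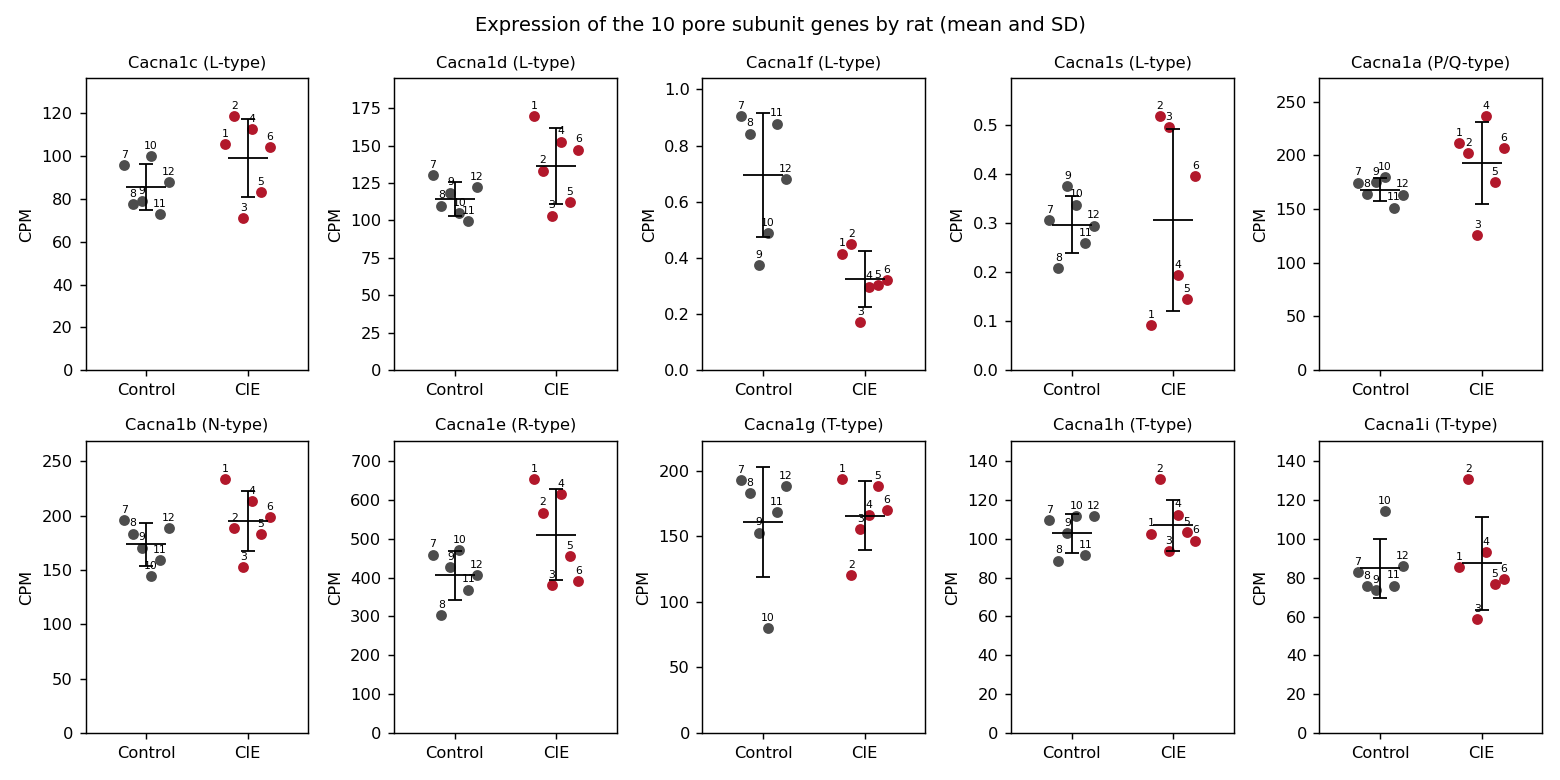
Expression of each pore subunit gene in CPM (vertical axis, from 0) in the Control and CIE groups, with 1 point per rat labelled by its number and bars for the mean and SD. In *Cacna1f*, 4 CIE rats lie below every Control rat, and in *Cacna1e* CIE rats 1, 2 and 4 lie above every Control rat.

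*Cacna1f* encodes the L-type pore best known from the ribbon synapses of retinal photoreceptors, and it was scarce in the CeA. Levels (lowest, median, highest) were 0.170, 0.311 and 0.450 CPM in CIE rats and 0.374, 0.762 and 0.904 CPM in Control rats. These levels rest on 11 to 27 counts per CIE rat and 26 to 81 counts per Control rat. Of the CIE rats, 4 lay below every Control rat, and the overlap came from CIE rats 1 and 2 and Control rat 9. The log2 fold change was -1.09 (SE 0.30, 95% interval -1.73 to -0.45, edgeR FDR = 0.210), that is 0.470 of the Control level. An exact permutation of the 12 rats gave p = 0.00866 (two-sided), where the smallest p possible is 0.00216. DESeq2 gave FDR = 0.0436. The nominal call held in 12 of 12 fits that left out 1 rat (log2 fold change from -1.22 to -0.96, edgeR FDR from 0.181 to 0.450).

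The lower level of *Cacna1f* was as large once region markers were taken into account. Adjusted for the cortical and striatal scores it was -1.18 on the log2 scale (edgeR FDR = 0.295), and without CIE rats 1, 2 and 4 and Control rat 10 it was -1.45 (FDR = 0.539). In those remaining 3 CIE and 5 Control rats the values did not overlap, from 0.170 to 0.321 CPM against 0.374 to 0.904 CPM. Of all genes, 4.36% showed no overlap between these 3 and 5 rats, and CIE rats 1 and 2, which overlapped with Control rats, are among those left out. Adjusted for the myelin score it was -0.92 (edgeR FDR = 0.437). All 3 fits kept *Cacna1f* under the nominal threshold. The endothelial markers were lower in the same direction as *Cacna1f*, and their part in the result was not tested. Photoreceptor and pineal markers, 7 genes of cells in which *Cacna1f* is abundant, summed to 3.46 to 4.27 CPM in CIE rats and 3.04 to 4.37 CPM in Control rats (exact permutation p = 0.810). Markers of mast cells and lymphocytes, 7 genes, summed to 31.0 to 39.8 CPM and 30.4 to 49.4 CPM (exact permutation p = 0.546).

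The gene before *Cacna1f* in the reference order is *Syp*, which encodes the synaptic vesicle protein synaptophysin and held 17537 to 46834 counts per rat. The strand and overlap settings of the counting are not given in the sources used here, so the share of reads of such a neighbour among the few counts of *Cacna1f* is not known. *Syp* itself had a log2 fold change of -0.04 (edgeR FDR = 0.932), and *Ccdc22*, on the other side, of -0.14 (FDR = 0.741). Neither neighbour passed the nominal threshold.

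*Cacna1d* encodes the L-type pore that opens at more negative voltages than *Cacna1c* and carries pacemaker current. The lowest, median and highest rats were at 103, 140.3 and 169 CPM in CIE rats and 99.6, 114 and 130.3 CPM in Control rats. CIE rats 1, 2, 4 and 6 lay above every Control rat, and CIE rats 3 and 5 lay within the Control range. The difference was 0.26 on the log2 scale (SE 0.11, 95% interval 0.0097 to 0.50, edgeR FDR = 0.579, exact permutation p = 0.0801). The nominal call held in 4 of 12 fits that left out 1 rat, those without CIE rat 3, CIE rat 5, Control rat 7 or Control rat 12, and the difference was smallest without CIE rat 1 (0.18). Adjusted for the myelin score it was 0.31 (edgeR FDR = 0.475), and for the cortical and striatal scores 0.14 (edgeR FDR = 0.758), both short of the nominal threshold. Without CIE rats 1, 2 and 4 and Control rat 10 it was 0.07 (edgeR FDR = 0.999), with means of 121 ± 23.2 CPM (SD, n = 3) and 116 ± 11.8 CPM (SD, n = 5). *Dcp1a*, a decapping factor gene 3 places from *Cacna1d* in the reference order and the nearest one listed on that side, had a log2 fold change of 0.25 (edgeR FDR = 0.386) and passed the nominal threshold. *Chdh*, next to *Cacna1d* on the other side, had -0.27 (FDR = 0.621) and did not.

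These L-type genes, *Cacna1d* and *Cacna1f*, passed the nominal threshold in opposite directions and have promoters of contrasting composition, so the 250 bases before their annotated starts are shown (RefSeq, build GRCr8, which is not the build of the counts). Both lie on the minus strand of the chromosome, at chr16:5527550-5527799 for *Cacna1d* and chrX:17568309-17568558 for *Cacna1f*, and are written 5′ to 3′ along the gene. Capitals mark the GC box, searched as GGGCGG on either strand (CCGCCC on the other), with overlapping matches counted.
Cacna1d: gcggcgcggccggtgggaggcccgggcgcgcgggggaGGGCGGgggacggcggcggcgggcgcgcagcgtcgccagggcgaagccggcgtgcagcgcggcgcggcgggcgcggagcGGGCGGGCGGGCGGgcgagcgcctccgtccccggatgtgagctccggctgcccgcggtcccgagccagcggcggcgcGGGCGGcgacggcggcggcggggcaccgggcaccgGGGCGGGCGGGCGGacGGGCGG
Cacna1f: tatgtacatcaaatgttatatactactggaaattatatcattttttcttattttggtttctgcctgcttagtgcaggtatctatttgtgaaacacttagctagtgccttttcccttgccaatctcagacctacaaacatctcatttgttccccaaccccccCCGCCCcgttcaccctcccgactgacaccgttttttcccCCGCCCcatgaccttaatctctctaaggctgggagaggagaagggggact
The *Cacna1d* sequence is 88.8% G and C, with 56 CpG and 9 GC boxes, and none of the 27457 promoters in the table holds more CpG. The *Cacna1f* sequence is 45.6% G and C, with 5 CpG and 2 GC boxes. Over all promoters the median was 52% G and C and 6 CpG, and 32.4% held a GC box. The reference holds promoters for 7 of the 10 genes, and among them *Cacna1a* (34 CpG) and *Cacna1b* (28 CpG) were also rich in CpG, whereas *Cacna1e* (6), *Cacna1c* (3) and *Cacna1s* (1) were not. A match to these letters is a description of the sequence and not a site.

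*Cacna1c* encodes the other L-type pore of neurons, which is also the L-type channel of heart and smooth muscle. Its lowest, median and highest levels were 71.2, 105 and 118 CPM in CIE rats and 72.9, 83.4 and 99.9 CPM in Control rats. CIE rats 1, 2, 4 and 6 were above every Control rat and CIE rat 3 was below them all. CIE exceeded Control by 0.21 on the log2 scale (SE 0.12, 95% interval -0.05 to 0.48, edgeR FDR = 0.700, exact permutation p = 0.141), short of the nominal threshold. Adjusted for the cortical and striatal scores the *Cacna1c* difference was 0.05 (edgeR FDR = 0.927), and for the myelin score 0.28 (FDR = 0.537). Without CIE rats 1, 2 and 4 and Control rat 10 it was 0.07 (FDR = 0.999). *Cacna1s* encodes the L-type pore of skeletal muscle, where it acts as the voltage sensor of contraction. It held 6 to 32 counts per CIE rat and 10 to 26 counts per Control rat, at 0.0923, 0.294 and 0.516 CPM (lowest, median, highest) in CIE rats and 0.208, 0.300 and 0.374 CPM in Control rats. CIE rats were on both sides of the Control range, 3 above and 3 below. The log2 fold change of 0.04 had a 95% interval of -0.82 to 0.91 (edgeR FDR = 0.986, exact permutation p = 0.905), so with this spread between rats a change of either sign inside that interval could not be told from 0. Without CIE rats 1, 2 and 4 and Control rat 10 the *Cacna1s* difference was 0.27 (edgeR FDR = 0.999).

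*Cacna1e* encodes the R-type pore, a high voltage-activated channel that the blockers of the other classes leave open. Levels (lowest, median, highest) were 380, 511 and 654 CPM in CIE rats and 303, 417 and 471 CPM in Control rats. The CIE rats above every Control rat were rats 1, 2 and 4, and the highest Control rat was rat 10, that is, the 4 rats highest in *Slc17a7*. The difference was 0.33 on the log2 scale (SE 0.15, 95% interval 0.013 to 0.65, edgeR FDR = 0.578, exact permutation p = 0.0952). The nominal call held in 5 of 12 fits that left out 1 rat, those without CIE rat 3, CIE rat 5, CIE rat 6, Control rat 7 or Control rat 10, and the difference was smallest without CIE rat 1 (0.25). Adjusted for the cortical and striatal scores it was 0.17 (edgeR FDR = 0.758), for the myelin score 0.24 (FDR = 0.687), and without the 4 rats it was 0.07 (FDR = 0.999).

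*Cacna1a* encodes the P/Q-type pore, the main trigger of release at most central synapses. The lowest, median and highest rats were at 126, 204 and 236 CPM in CIE rats and 151, 169 and 179.8 CPM in Control rats. CIE rats 1, 2, 4 and 6 were above every Control rat, and CIE rat 3 was below them all. CIE exceeded Control by 0.20 on the log2 scale (SE 0.12, 95% interval -0.06 to 0.45, edgeR FDR = 0.712, exact permutation p = 0.162), short of the nominal threshold. Without CIE rat 3 the difference was 0.30 (edgeR FDR = 0.124) and passed that threshold. Adjusted for the myelin score it was 0.32 (FDR = 0.477) and did not pass. With the cortical and striatal scores it was 0.05 (FDR = 0.933), and without CIE rats 1, 2 and 4 and Control rat 10 it was 0.05 (FDR = 0.999). CIE rat 3 held the lowest CIE value of every member except *Cacna1g* and *Cacna1s*. Without that rat 6 of the 10 members passed the nominal threshold and 0 passed 5% FDR. The share of all genes passing the nominal threshold in that fit was not taken, so this count has no background beside it. *Cacna1b* encodes the N-type pore, which shares the task of triggering release and is the target of omega-conotoxin. Its lowest, median and highest levels were 153, 193 and 233 CPM in CIE rats and 144, 177 and 195 CPM in Control rats. CIE rats 1, 4 and 6 were above every Control rat, and the lowest of all was Control rat 10. The difference was 0.17 on the log2 scale (SE 0.10, 95% interval -0.05 to 0.39, edgeR FDR = 0.714, exact permutation p = 0.149), and without CIE rats 1, 2 and 4 and Control rat 10 it was 0.0049 (FDR = 0.999).

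**Figure D2:**
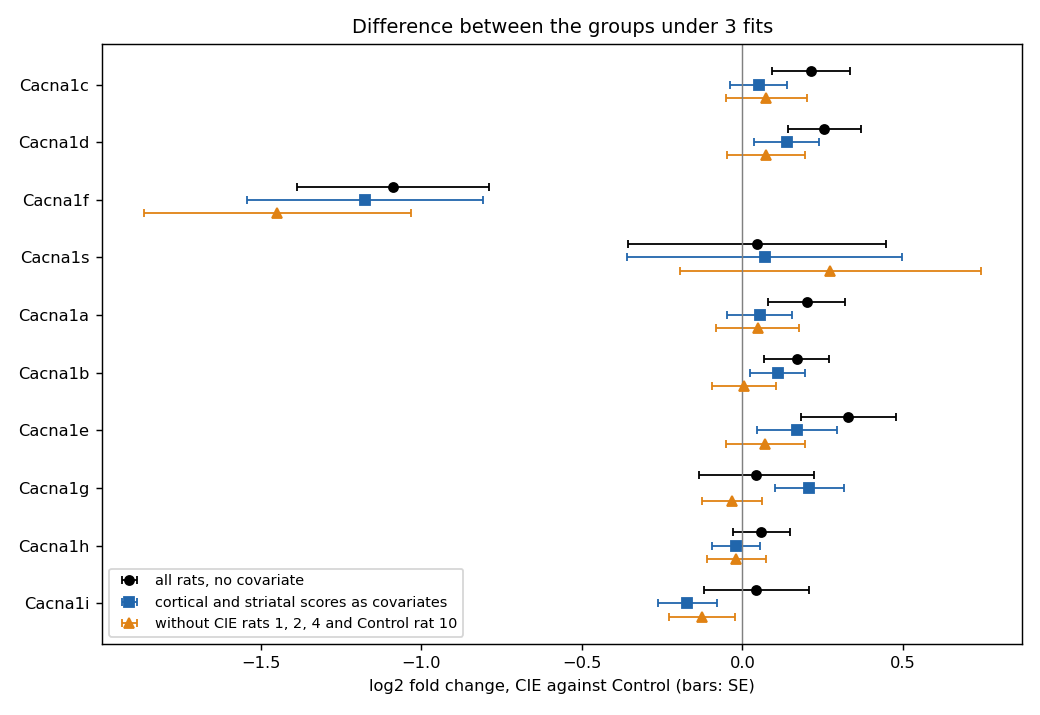
Log2 fold change between CIE and Control (horizontal axis, bars are SE) for each pore subunit gene, with all rats, adjusted for the cortical and striatal scores, and without CIE rats 1, 2 and 4 and Control rat 10. The values of *Cacna1d* and *Cacna1e* move from 0.26 and 0.33 to 0.07 and 0.07 without these 4 rats, and that of *Cacna1f* moves from -1.09 to -1.45.

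None of the T-type genes passed the nominal threshold. *Cacna1g* encodes the T-type pore of thalamic relay neurons and many other principal cells. Levels (lowest, median, highest) were 121, 168 and 193 CPM in CIE rats and 79.9, 176 and 193 CPM in Control rats. The groups were alike at the top, and the lowest value was that of Control rat 10, with the next Control rat at 153 CPM. CIE and Control differed by 0.04 on the log2 scale (SE 0.18, 95% interval -0.34 to 0.43, edgeR FDR = 0.970, exact permutation p = 0.801). *Cacna1i* encodes a T-type pore of slow kinetics found in inhibitory neurons such as those of the reticular thalamus. The lowest, median and highest rats were at 58.7, 82.3 and 131 CPM in CIE rats and 73.7, 79.4 and 114 CPM in Control rats. Here too the difference was 0.04 (SE 0.16, 95% interval -0.31 to 0.39, edgeR FDR = 0.965, exact permutation p = 0.823).

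In both groups the rat highest in *Drd2* (CIE rat 2 and Control rat 10) held the lowest *Cacna1g* and the highest *Cacna1i* value of its group. Adjusted for the cortical and striatal scores, the SE went from 0.18 to 0.11 for *Cacna1g* and from 0.16 to 0.09 for *Cacna1i*. The differences were then 0.21 (edgeR FDR = 0.604) and -0.17 (FDR = 0.619), still short of the nominal threshold. The part of adjoining tissue in these values was not tested. *Cacna1h* encodes the T-type pore known from sensory neurons. Its lowest, median and highest levels were 93.5, 103 and 131 CPM in CIE rats and 88.7, 106 and 112 CPM in Control rats, and the Control range held all CIE rats but rats 2 and 4. The difference of 0.06 on the log2 scale (SE 0.09, 95% interval -0.13 to 0.25, edgeR FDR = 0.911, exact permutation p = 0.556) had the narrowest interval in the family.

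**Figure D3:**
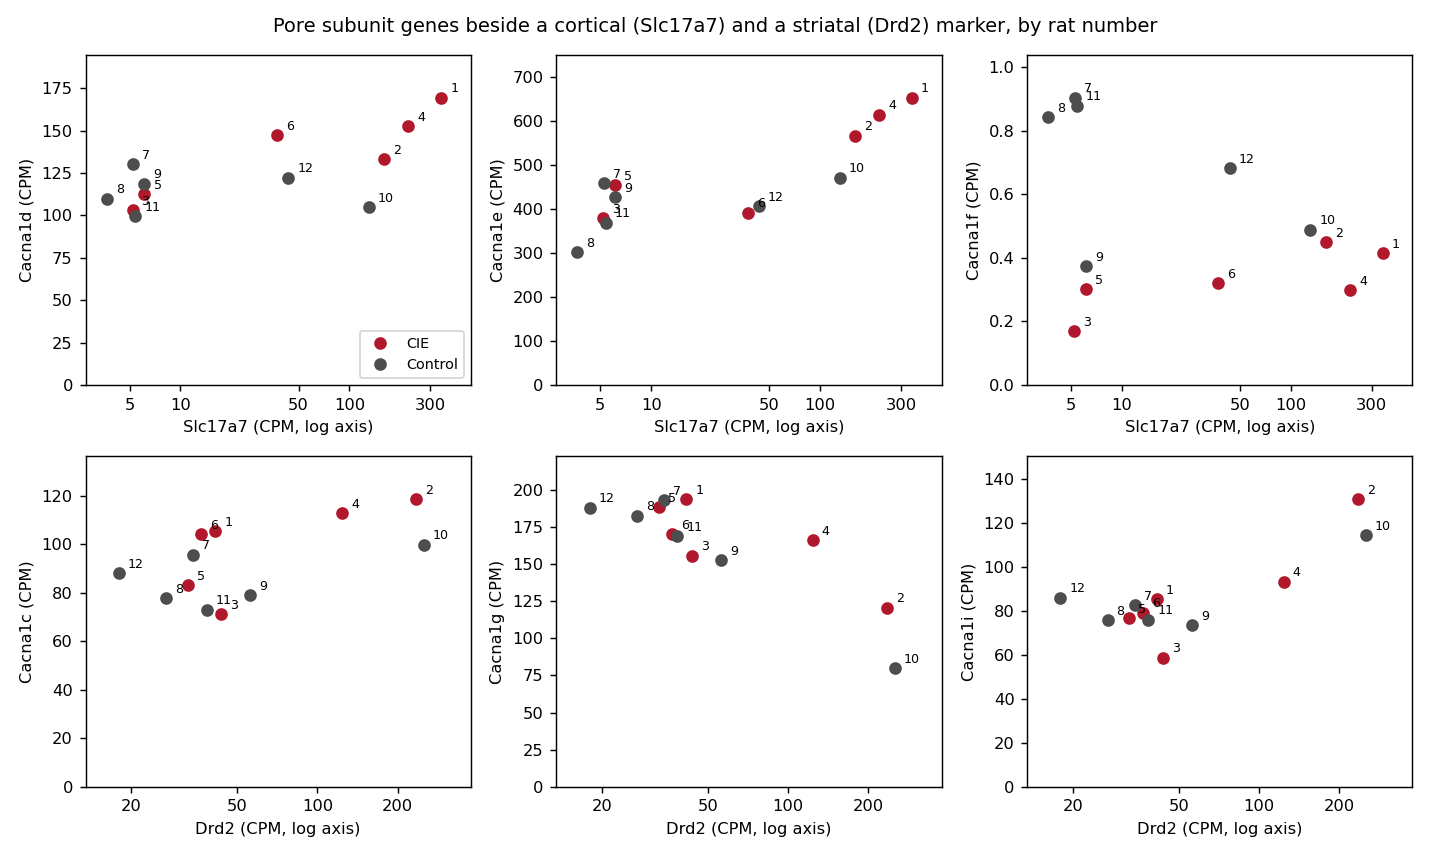
Levels of *Cacna1d*, *Cacna1e* and *Cacna1f* against *Slc17a7* (cortical marker) and of *Cacna1c*, *Cacna1g* and *Cacna1i* against *Drd2* (striatal marker), in CPM with a log horizontal axis and 1 point per rat. CIE rat 2 and Control rat 10, the highest in *Drd2* at 236 and 251 CPM, are lowest in *Cacna1g* and highest in *Cacna1i*.

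To remove scaling between libraries, each channel class was also expressed as a share of the counts of all 10 genes within a rat. The shares are shares of reads and not of transcripts, since gene lengths were not used. The summed level was 1494 ± 232 CPM in CIE rats (SD, n = 6) and 1296 ± 98.4 CPM in Control rats (SD, n = 6; two-sided exact permutation p = 0.0931). R-type reads made up 33.9% ± 3.30 in CIE rats and 31.2% ± 3.48 in the Control group, and T-type reads 24.4% ± 2.29 and 26.9% ± 2.23 (SD, n = 6 each). The T-type share differed by -2.54 points, lower in the CIE group (exact permutation p = 0.0866, adjusted over 5 classes 0.433), and the R-type share by 2.65 points, higher (exact permutation p = 0.208, adjusted 0.519). L-type reads (15.8% and 15.5%), P/Q-type reads (12.9% and 13.0%) and N-type reads (13.1% and 13.4%) differed between the groups by 0.32, -0.13 and -0.31 points, in each case less than the SD of either group. Without CIE rats 1, 2 and 4 and Control rat 10 the T-type and R-type differences were -1.40 and 1.18 points. No class passed the test after adjustment.

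**Figure D4:**
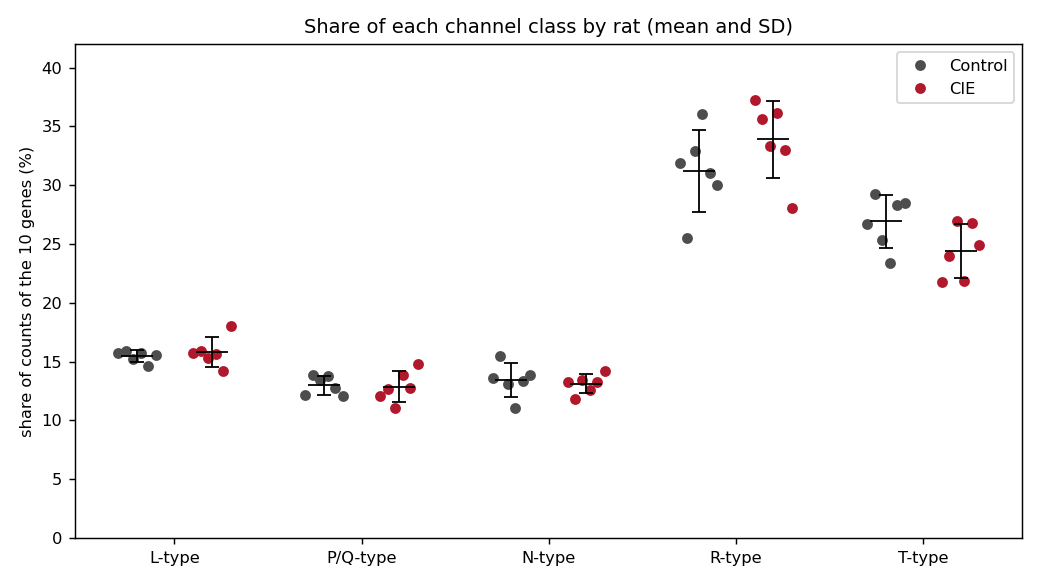
Share of each channel class in the counts of the 10 pore subunit genes (percent, vertical axis from 0), with 1 point per rat and bars for the mean and SD of the CIE and Control groups. The groups overlap in every class, with the largest differences of the means in the R-type (33.9% against 31.2%) and the T-type (24.4% against 26.9%).

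Ratios between members do not depend on the scaling between libraries. The ratio of *Cacna1f* to *Cacna1d* pairs genes already known to differ in opposite directions in these libraries, so it restates that pattern and is given as a description. Its log2 ratio of counts had a lowest, median and highest value of -9.18, -8.73 and -8.18 in CIE rats and -8.28, -7.32 and -6.80 in the Control group. In the CIE group 5 rats lay below every Control rat. The difference of the means was -1.31, and without CIE rats 1, 2 and 4 and Control rat 10 it was -1.49. The ratios of *Cacna1d* to *Cacna1c* (difference 0.04, exact permutation p = 0.693), *Cacna1e* to *Cacna1b* (0.15, p = 0.370) and *Cacna1a* to *Cacna1b* (0.01, p = 0.918) did not pass the two-sided test.

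Among rats of the same group, some pairs of members varied together. Of 45 pairs, 5 were correlated at 5% FDR (Pearson's r of log2 CPM with group means removed, 12 rats, 100000 permutations within groups), all positive, and 15 had an unadjusted p below 0.05. The highest was *Cacna1b* with *Cacna1d* (r = 0.89, permutation p = 0.00032, adjusted 0.0099; Spearman's rho 0.92, permutation p = 0.00019, adjusted 0.00855). *Cacna1c* with *Cacna1i* followed (r = 0.85, permutation p = 0.00044, adjusted 0.0099; rho 0.90, permutation p = 0.00052, adjusted 0.0117). The other pairs were *Cacna1h* with *Cacna1i* (r = 0.83, adjusted permutation p = 0.0147; rho 0.74, adjusted 0.0842), *Cacna1a* with *Cacna1c* (r = 0.85, adjusted 0.0190; rho 0.78, adjusted 0.0842) and *Cacna1a* with *Cacna1d* (r = 0.80, adjusted 0.0412; rho 0.73, adjusted 0.0842). By rho 2 pairs passed. *Cacna1e*, *Cacna1f*, *Cacna1g* and *Cacna1s* were in none of the 5 pairs. Leaving out the 2 rats farthest from the median of the first gene gave r = 0.88, 0.76, 0.73, 0.79 and 0.72 for these 5 pairs in the order given.

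Region markers bore on these pairs unequally. With the cortical and striatal scores also removed, 8 pairs passed, and r was 0.89 for *Cacna1b* with *Cacna1d* but 0.59 for *Cacna1c* with *Cacna1i*. *Cacna1b* with *Cacna1g* went from 0.61 to 0.89. *Cacna1g* and *Cacna1i* had r = -0.61 (permutation p = 0.0277, adjusted 0.0960) but rho = -0.15 (permutation p = 0.638, adjusted 0.732), and r was 0.52 without CIE rat 2 and Control rat 10, so the negative value rests on those rats. No pair passed without CIE rat 3, 3 pairs passed without CIE rat 5, and 2 passed without Control rat 11.

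**Figure D5:**
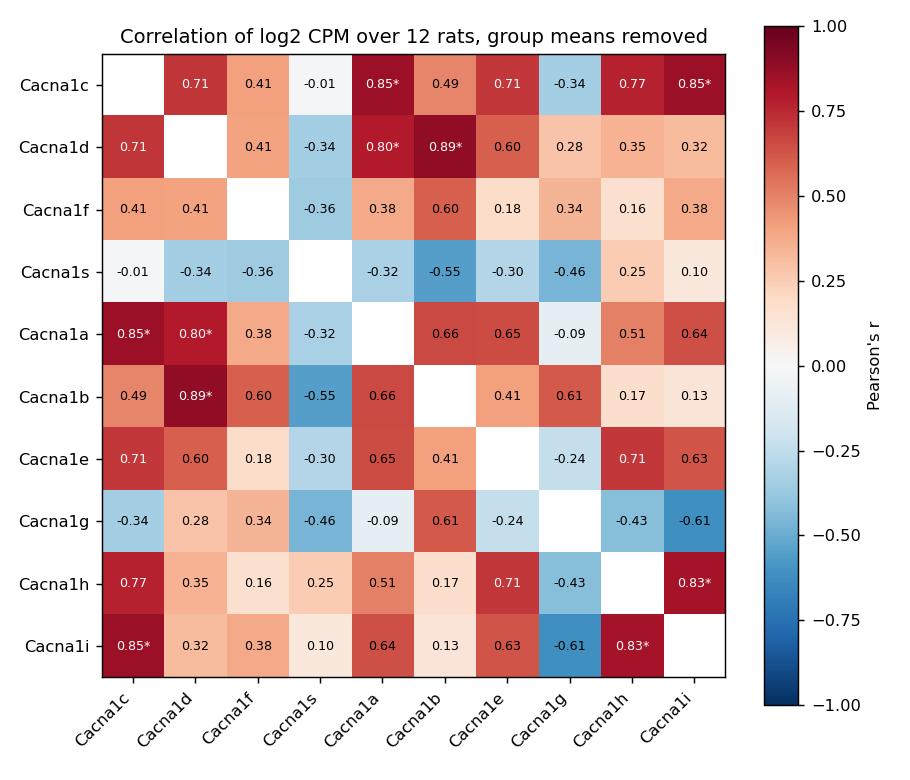
Pearson's r between pore subunit genes over 12 rats (log2 CPM, group means removed), with the color scale from -1 to 1 and an asterisk for an adjusted p below 0.05. The 5 marked pairs are positive, from 0.80 to 0.89, and *Cacna1g* with *Cacna1i* is at -0.61.

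All 16 auxiliary subunits were tested, and 0 had a nominal p below 0.05 in edgeR (background 8.31%), with 0 at 5% FDR (background 0.363%) and a median log2 fold change of 0.08 (0.00 over all genes). The smallest edgeR p belonged to *Cacnb2*, a beta subunit that brings high voltage-activated pores to the membrane, with a lowest, median and highest level of 85.1, 106 and 154 CPM in CIE rats and 76.0, 94.5 and 137 CPM in Control rats. The groups overlapped widely, and the difference was 0.26 on the log2 scale (SE 0.17, edgeR FDR = 0.732, exact permutation p = 0.197). By type, 4 of 4 beta subunits, 3 of 4 alpha2delta subunits and 3 of 8 genes listed by symbol as gamma subunits had a log2 fold change above 0. The sodium channel pores, a family of the same architecture, gave 0 of 10 at a nominal p below 0.05 in edgeR, against the same background, with a median of -0.02 and the smallest edgeR p for *Scn8a* (log2 fold change 0.15, edgeR FDR = 0.826, exact permutation p = 0.327). *Nalcn*, the related leak channel, had a log2 fold change of -0.0039 (edgeR FDR = 0.992).

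Of 39 genes that regulate these channels or handle the calcium they admit, 38 were tested. At a nominal p below 0.05, 1 was higher and 1 lower (background 8.31%), with none at 5% FDR (background 0.363%). The nominal count ran from 0 to 11 over the alternative fits, so it is not read as a difference from the background. *Rimbp2*, a scaffold that ties calcium channels to release sites, was at 117, 129.5 and 183 CPM (lowest, median, highest) in CIE rats and 98.2, 112 and 128 CPM in Control rats. It was higher by 0.30 on the log2 scale (SE 0.11, edgeR FDR = 0.475, exact permutation p = 0.0390). *Dos*, also named *Cbarp*, encodes a protein that binds beta subunits and dampens calcium current. It was at 464, 548 and 606 CPM in CIE rats and 446, 684 and 687 CPM in Control rats, and differed by -0.23 on the log2 scale (SE 0.10, edgeR FDR = 0.577, exact permutation p = 0.0628). The groups overlapped in both genes. In the lists with no call, the smallest edgeR p belonged to *Ryr1* among the calcium release channels (log2 fold change 0.46, exact permutation p = 0.121), *Atp2b3* among the pumps and exchangers (0.07, p = 0.301) and *Camk2a* among the calcium-dependent kinases and phosphatase (0.29, p = 0.342).

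The genes whose pattern among rats was most like that of *Cacna1d*, by Pearson's r over the 12 rats with group means removed and among 17442 genes with at least 20 counts in every rat, were *Nav3* (0.95), *Hdac4* (0.95) and RGD1306271 (0.95). Those most like *Cacna1f* were *Zbtb37* (0.87), LOC685590 (0.87) and *Spert* (0.86). Depth and the region content of each punch enter these values, which are given as a description.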

How the data were processed

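CeA punches of 12 rats (6 CIE, 6 Control) each gave 1 poly-A library. The authors used BWA with Rnor_6.0 for mapping and HTSeq for counting, and the deposited values are raw counts. The annotation and the strand setting are not given in the sources used here. Rats were grouped by their treatment label. No source says that the rats were processed in separate batches.

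Counts were compared with edgeR 4.0.16 (R 4.3.3; quasi-likelihood F test, two-sided, TMM, filterByExpr, no covariates) over 20944 genes, with Benjamini-Hochberg FDR. Alternatives used DESeq2 1.42.0, limma 3.58.1, sva 3.50.0, marker scores as covariates and each rat left out. Single values were compared by exact permutation of the 12 rats. SE was derived from the F statistic (estimate over root F). Ratios had 0.5 added to counts. The code was tested on simulated data. Outside the 10 members, the genes named are those of a list at a nominal p below 0.05, or the one of smallest p where there is none, the nearest neighbours, and the 3 most alike. Members and lists were chosen with earlier results of these data known. Intervals of single genes come from the fit, and rats of one group measure biological and dissection differences together.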

Additional observations from a re-analysis of the deposited data

Results flagged for a closer look

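Among the 20 sets of 6 values (10 members in each group), 2 had a rat set apart from the others of its group by Dixon's criterion, which chance meets in about 1 in 20 groups. Both were Control rat 10. *Cacna1g* was lowest there, at 79.9 CPM with the next rat at 153 CPM, and *Cacna1i* was highest there, at 114 CPM with the next rat at 86.0 CPM. Control rat 10 was also the rat with the highest *Drd2* level (251 CPM). The part of adjoining tissue in these values was not tested.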

How the results depend on the processing

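No paired analysis was possible because the rat numbers (CIE 1 to 6, Control 7 to 12) do not repeat across groups. Class shares per length of coding sequence were not run, as no lengths were given.

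The count of pore subunits at a nominal p below 0.05 (3) was 1 with 1 surrogate variable, with cortical and striatal scores, with the myelin score and without CIE rats 1, 2 and 4 and Control rat 10, 6 with limma-voom and sample quality weights together (weighted voom), and 1 to 6 with each rat left out. It was 1 without CIE rats 1, 2 or 4 or Control rats 8, 9 or 11, and 6 without CIE rat 3. At 5% FDR it was 0 in edgeR with any rat left out and 1 by DESeq2 with or without betaPrior. Between 6 and 9 members were higher, and 0 or 1 had groups without overlap, 1 without Control rat 9 or without the 4 rats. Auxiliary subunits (0) gave 1 with the surrogate variable, the myelin score or without the 4 rats, 2 with cortical and striatal scores, 3 with weighted voom and 0 to 2 with a rat left out (2 without Control rat 10). Pathway genes (2) gave 5 with the surrogate variable, 1 with DESeq2 size factors, library size, the myelin score or without the 4 rats, 4 by DESeq2 with or without betaPrior, 11 with weighted voom and 0 to 9 with a rat left out (0 without CIE rat 1, 9 without Control rat 10). Sodium channels gave 1 with weighted voom and 0 to 1 with a rat left out. The share of all genes at a nominal p below 0.05 was taken for 3 fits only. These were the main fit, that with cortical and striatal scores and that without the 4 rats. Counts of the other fits have no background beside them.

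Among the members, the sign changed only for *Cacna1g*, *Cacna1h*, *Cacna1i* and *Cacna1s*, whose log2 fold changes in the main fit were 0.04, 0.06, 0.04 and 0.04. The reversed values were not all near 0. *Cacna1g* was at -0.0052 with the myelin score, -0.033 without the 4 rats and -0.089 to 0.12 with a rat left out. *Cacna1h* was at -0.020 with cortical and striatal scores and -0.019 without the 4 rats, and -0.0076 to 0.094. *Cacna1i* was at -0.089 with the surrogate variable, -0.17 with cortical and striatal scores, -0.12 without the 4 rats, and -0.11 to 0.15. *Cacna1s* was at -0.017 with the surrogate variable, -0.48 with weighted voom, -0.036 with the myelin score, and -0.16 to 0.23. With a rat left out, differences in share were -0.52 to 0.24 points (P/Q, 0.020 without the 4 rats), -0.78 to 0.11 (N), 1.51 to 3.82 (R), -0.12 to 0.64 (L) and -3.24 to -2.02 (T). Log2 ratios were -0.031 to 0.10 for *Cacna1d* to *Cacna1c* (-0.00047 without the 4 rats), -1.48 to -1.19 for *Cacna1f* to *Cacna1d* (-1.49 without the 4 rats), 0.05 to 0.25 for *Cacna1e* to *Cacna1b* and -0.025 to 0.082 for *Cacna1a* to *Cacna1b*. Correlated pairs (5) were 12 with group means kept, 8 with region scores removed and 0 to 7 with a rat left out. Causes were not tested. The fewest counts lie behind *Cacna1f* and *Cacna1s*, at most 81 and 32 per rat.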
